A study of Mus musculus with 16 samples.

Results

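The NMDA receptor subunit genes Grin1, Grin2a, Grin2b, Grin2c, Grin2d and Grin3a were followed through RNA sequencing of mouse hippocampal CA1 tissue. These 6 genes were taken by symbol from the 46403 gene symbols of the quantification, and 35 of its 111706 transcripts belong to them. All 6 genes and 17 of the 35 transcripts had enough counts to be tested. The study compared 8 libraries from Fmr1-KO mice with 8 from WT mice, listed as C57BL/6, and asked which CA1 messages change when Fmr1 is lost. The protein made from Fmr1, FMRP, binds neuronal messages and slows their translation; its absence causes fragile X syndrome. In an active place avoidance task all 16 animals had been the yoked controls, so every group shares that experience. The labels used here state neither age nor sex, nor whether the genotypes were littermates. They give each animal a number and a letter, B or D, whose meaning is not stated. Several numbers occur with both letters, always within the same genotype, and each number with its letter is read as a separate animal. Each genotype has 4 animals of each letter.

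NMDA receptors are glutamate-gated channels that open only when glutamate and a co-agonist are bound and depolarisation has relieved a magnesium block. Calcium entering through them starts long-term potentiation and long-term depression at CA1 synapses. Each receptor contains GluN1, encoded by Grin1, which binds glycine or D-serine and is obligatory. GluN2 subunits, encoded by Grin2a to Grin2d, bind glutamate and set the channel's kinetics. In the forebrain GluN2B dominates early in life and GluN2A is added during postnatal development. GluN3A, encoded by Grin3a, binds glycine and is highest in the juvenile brain.

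Grin1 has more annotated protein-coding messages than any other member. Alternative splicing includes or skips an exon near the 5′ end (the N1 cassette, in the extracellular amino-terminal domain) and an exon near the 3′ end (C1). A choice between 2 acceptors in the last exon then gives either the C2 or the C2′ tail. N1 changes the gating and the proton sensitivity of the receptor. C1 carries an endoplasmic reticulum retention signal, and C2′ ends in a motif that binds PDZ domains. The annotation has 8 protein-coding Grin1 transcripts, one for each combination, and the deposited quantification lists all of them. The cassettes are printed here because the transcript results below are counts of messages with and without them. Capitals mark the cassette, or the first 20 bases after the C2 or C2′ acceptor, and lower case marks the 15 joined bases of the neighbouring exons.
N1: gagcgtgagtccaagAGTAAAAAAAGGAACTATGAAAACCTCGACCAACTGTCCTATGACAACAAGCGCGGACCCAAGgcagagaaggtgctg
C1: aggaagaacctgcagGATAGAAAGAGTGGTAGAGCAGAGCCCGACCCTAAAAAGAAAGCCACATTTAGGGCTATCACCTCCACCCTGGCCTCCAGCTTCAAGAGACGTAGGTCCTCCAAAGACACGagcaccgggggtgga
C2: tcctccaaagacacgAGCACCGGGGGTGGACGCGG
C2′: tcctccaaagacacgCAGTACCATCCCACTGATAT
N1 is exon 4 of the 21 exons of the longest transcript and holds 63 coding bases at chr2:25311343-25311405 of GRCm38. C1 is exon 20, with 111 coding bases at chr2:25294438-25294548. The capitals of C2 lie at chr2:25292465-25292484 and those of C2′ at chr2:25292109-25292128, all within exon 21 and all on the minus strand. The acceptors are 356 bases apart, and the last exon adds 114 coding bases from the C2 acceptor and 66 from the C2′ acceptor. Sequences, positions and transcript structures are those of GENCODE M21, whose lengths equal the deposited ones for 34 of the members' 35 transcripts. The remaining one, a short Grin2d transcript, was not found in that annotation.

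Total estimated counts lay between 1480966 and 2979481 in the Fmr1-KO libraries and between 515103 and 3275003 in the WT libraries. WT replicates 3 and 6, both of letter B, stood apart with totals of 878484 and 515103. The 10 most abundant genes took 10.3% and 31.6% of their counts (3.73% to 6.06% elsewhere). Values without these libraries are given beside the results that they move most. Fmr1 averaged 22.2 ± 7.08 counts scaled by library size (CPM) in Fmr1-KO mice, against 58.1 ± 19.4 CPM in WT (SD, n = 8 each), with the highest Fmr1-KO library at 32.0 and the lowest WT library at 39.6 CPM. None of the 8 markers of CA1 pyramidal cells was at 0 in all libraries. Their summed levels were 4438 to 4896 CPM in Fmr1-KO and 4226 to 4729 CPM in WT. The median log2 fold change of the CA1 markers was −0.04 (−0.02 without WT replicates 3 and 6), with 5 of 8 below 0. Markers of other cells were also lower in Fmr1-KO on the median of each list, and their part in the results below was not tested. For CA3 pyramidal cells the median log2 fold change was −0.61 (−0.12 without WT replicates 3 and 6), and for dentate granule cells it was −1.11 (0.14 without them). The median was −0.66 (−0.22) for endothelium, −0.36 (−0.25) for microglia and −0.35 (−0.37) for oligodendrocytes. Below 0 were 7 of 7, 7 of 7 and 8 of 8 of these markers, beside 5977 of all 11515 genes tested. No marker passed edgeR's adjusted threshold, which 0.0174% of all genes did. An unadjusted edgeR p under 0.05 was reached by 3 of 5 CA3, 1 of 3 dentate and 3 of 7 endothelial markers. Of all genes, 7.89% reached it. The counts were 2 of 8 for CA1, 1 of 12 for interneurons and 2 of 12 for astrocytes. They were 1 of 7 for microglia and 0 of 8 for oligodendrocytes. The highest CA3 and endothelial sums were those of WT replicate 3 (337 and 355 CPM), and the highest dentate sum that of WT replicate 6 (162 CPM).

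No member passed the test between the genotypes. In edgeR's quasi-likelihood test with Benjamini-Hochberg adjustment over 11515 genes, 0 of 6 members had an adjusted p under 0.05, where 0.0174% of all genes did. No member's groups were free of overlap, as those of 0.0434% of all genes were. The count was again 0 of 6 without WT replicates 3 and 6, where 0.0169% of genes passed. At an unadjusted p under 0.05 the count was 2 of 6, Grin1 and Grin2b, both with higher means in Fmr1-KO, against a background of 7.89% of all genes, or 3.61% counting higher genes alone. DESeq2 and limma-voom with quality weights, which called 0.0227% and 0.0608% of the genes they tested, also placed 0 of 6 past the threshold. The median log2 fold change of the 6 members was −0.0020, beside −0.01 over all genes tested, with 3 members above 0 and 3 below, where 48.1% of all genes were above 0. The members' median was 0.09 without WT replicates 3 and 6, beside −0.0013 over all genes. Levels below are CPM after TMM scaling, and fold changes are Fmr1-KO over WT. Positions are on GRCm38, where all 6 genes lie on the minus strand. In bulk tissue, fewer cells of a type and less RNA per cell cannot be told apart.

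Grin1, the obligatory subunit gene (chr2:25291181-25319187), came nearest to the threshold. Its level in the Fmr1-KO libraries was lowest at 1401, with a median of 1552 and a highest value of 1619 CPM, against 887, 1318 and 1419 CPM in WT. All 8 Fmr1-KO libraries lay above the WT median, and the ranges met only where Fmr1-KO replicate 4 fell short of WT replicate 5. Grin1 averaged 1528 ± 66.7 CPM in Fmr1-KO mice, against 1251 ± 175 CPM in WT (SD, n = 8 each). The log2 fold change was 0.29 (SE 0.085), a fold of 1.22 with a 95% interval (from the normal approximation) of 1.09 to 1.37. Its unadjusted p of 0.00259 ranked 52 of 11515, and the adjusted p was 0.515 in edgeR. The adjusted p was smallest in limma-voom with quality weights, at 0.0812, and was 0.0992 in DESeq2.

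WT replicates 3 and 6 held the lowest Grin1 levels of all 16 libraries. Without them the WT mean was 1332 ± 72.3 CPM (SD, n = 6), the log2 fold change was 0.20 and edgeR's adjusted p was 0.600. Between animals of letter B the log2 fold change was 0.43, and between animals of letter D it was 0.16; that difference was not tested. Grin1 was the least variable member, with a coefficient of variation between libraries of 4.37% in Fmr1-KO and 13.97% in WT, or 5.42% in WT without replicates 3 and 6.

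Grin2b (chr6:135713233-136173511) encodes GluN2B, whose long tail docks CaMKII, the kinase of long-term potentiation. The Fmr1-KO libraries ran from 1598 through a median of 2407 to 2799 CPM, and the WT libraries from 926 through 1852 to 2819 CPM. The lowest values were WT replicates 3 and 1, while the highest of all was WT replicate 5, so the ranges overlapped along most of their length. Grin2b averaged 2350 ± 419 CPM in Fmr1-KO mice, against 1835 ± 614 CPM in WT (SD, n = 8 each), with 7 of 8 Fmr1-KO libraries above the WT median. The log2 fold change was 0.36 (SE 0.17, unadjusted p = 0.0484), giving an adjusted p of 0.628 in edgeR. Without WT replicates 3 and 6 it was 0.24 (adjusted p = 0.715 in edgeR). It was 0.78 between animals of letter B and 0.03 between animals of letter D, and that difference was not tested.

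Grin2a (chr16:9567898-9995560) encodes GluN2A, which gives receptors with faster decay. Its levels overlapped almost fully, with 911, 1458 and 1680 CPM as the lowest, median and highest values in Fmr1-KO and 820, 1224 and 1582 CPM in WT. The means were 1362 ± 244 CPM in Fmr1-KO mice, against 1240 ± 278 CPM in WT (SD, n = 8 each). The log2 fold change of 0.14 (SE 0.13) came with an adjusted p of 0.832 in edgeR, and with a 95% interval for the fold of 0.916 to 1.32. This became 0.07 without WT replicate 3, and 0.07 without WT replicates 3 and 6. It was 0.36 between animals of letter B and −0.045 between animals of letter D, and this difference was not tested either.

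**Figure D1:**
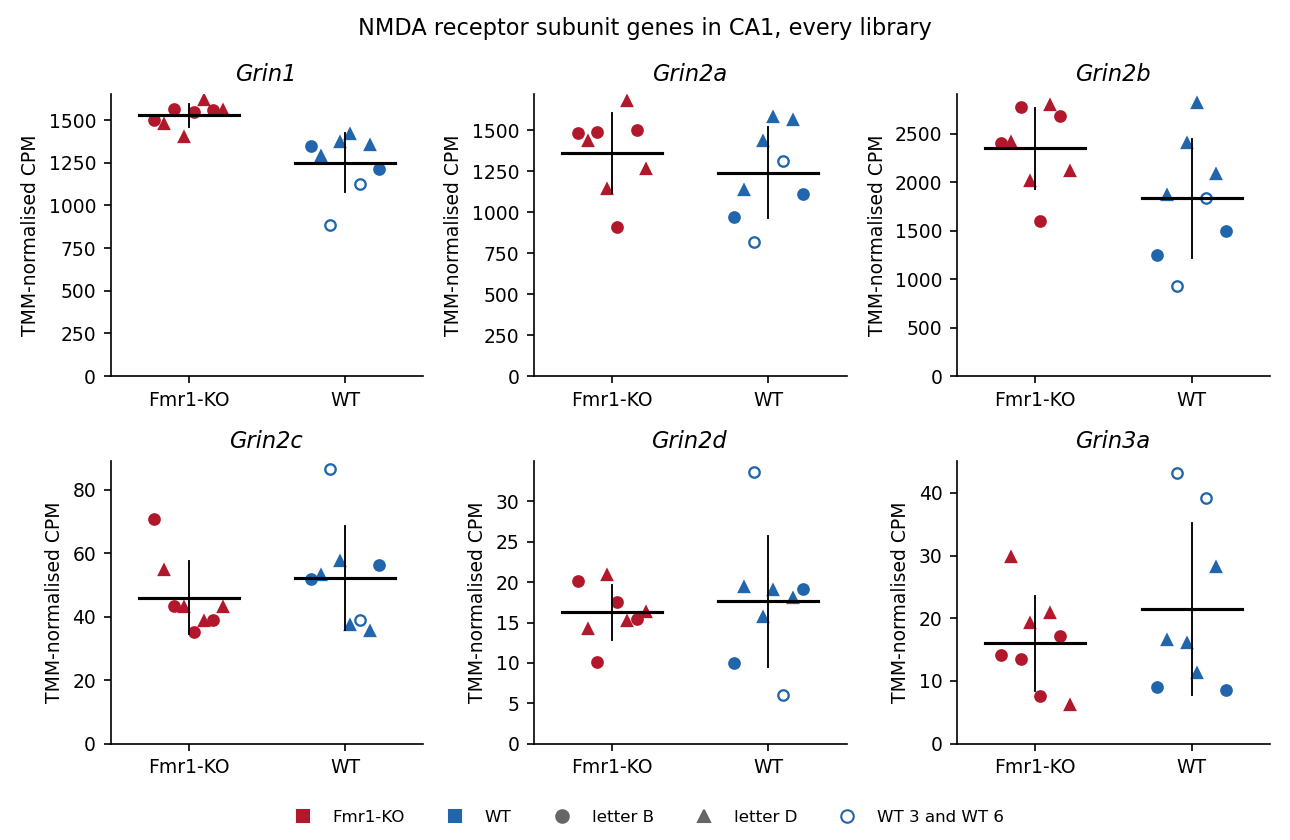
TMM-normalised CPM of the 6 subunit genes in every library, Fmr1-KO left and WT right in each panel, with the mean (horizontal line) and SD (vertical line) over 8 libraries and the letter of the animal label as marker shape. The Fmr1-KO libraries form a narrow band between 1401 and 1619 CPM for Grin1, and the open circles (WT replicates 3 and 6) sit lowest there.

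The 3 remaining members were far less abundant, and none differed detectably at this depth. Grin2c (chr11:115249169-115267243), known from cerebellar granule cells and from astrocytes, averaged 46.0 ± 11.6 CPM in Fmr1-KO mice, against 52.2 ± 16.4 CPM in WT (SD, n = 8 each). Its lowest, median and highest values were 35.2, 43.1 and 70.8 CPM in Fmr1-KO and 35.5, 52.5 and 86.4 CPM in WT, where the highest was WT replicate 3. The log2 fold change was −0.19 (SE 0.18), giving an adjusted p of 0.825 in edgeR. The 95% interval of the Grin2c fold reached from 0.689 to 1.12. It was centred on a log2 fold change of −0.19, which became −0.09 without WT replicates 3 and 6.

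Grin2d (chr7:45831883-45878378), which in the adult hippocampus is expressed chiefly in interneurons, averaged 16.2 ± 3.44 CPM in Fmr1-KO mice, against 17.6 ± 8.10 CPM in WT (SD, n = 8 each). These levels rest on 21 to 49 counts per Fmr1-KO library and 2 to 67 counts per WT library. The Fmr1-KO libraries, at 10.1 to 20.9 CPM, lay inside the WT range of 6.02 to 33.6 CPM, whose ends were WT replicates 6 and 3. The log2 fold change was −0.14 (SE 0.25), giving an adjusted p of 0.918 in edgeR, and leaving out WT replicate 3 alone moved it to 0.01. The 95% interval of the Grin2d fold, 0.647 to 1.27, is that of the 16 libraries.

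Grin3a (chr4:49661611-49845744) was the most variable member, at coefficients of variation of 47.3% in Fmr1-KO and 63.7% in WT. It had 6.17, 15.6 and 29.7 CPM as the lowest, median and highest values in Fmr1-KO, and 8.54, 16.3 and 43.2 CPM in WT. WT replicates 3 and 6 were the highest of all libraries. The log2 fold change was −0.31 (SE 0.37, adjusted p = 0.872 in edgeR), and without these libraries it turned to 0.10. Counts of 14 to 56 per Fmr1-KO library and 13 to 61 per WT library left a 95% interval for the Grin3a fold of 0.492 to 1.33. Grin3b, the other GluN3 gene, was too low to be tested.

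**Figure D2:**
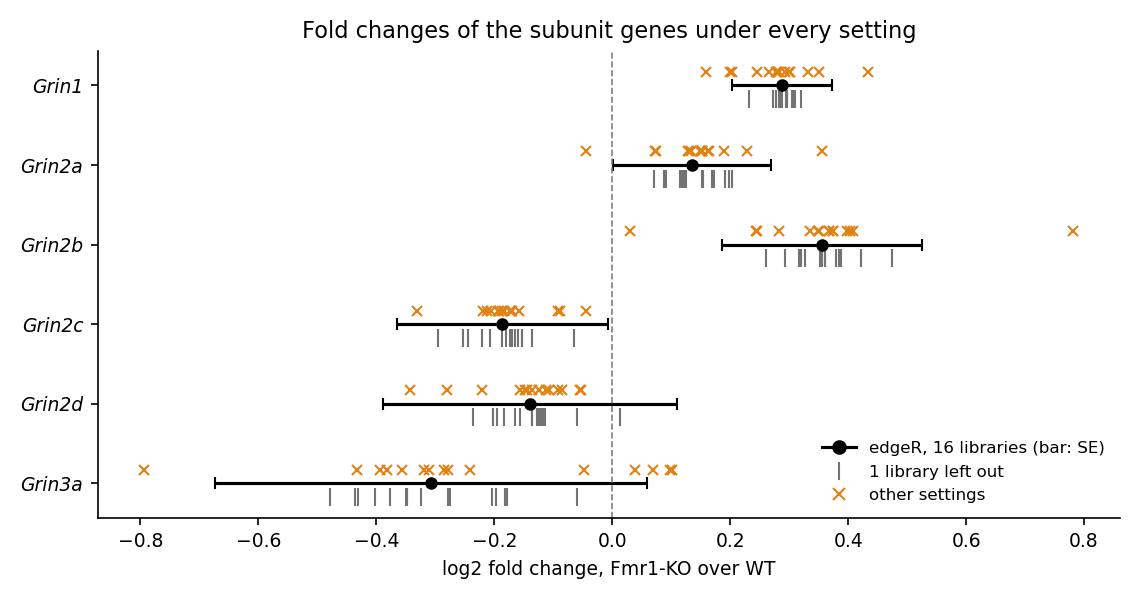
Log2 fold change (Fmr1-KO over WT) of each subunit gene in edgeR with all 16 libraries (black point, bar for SE), with 1 library left out in turn (grey ticks) and under the other settings (orange crosses, with TPM settings relative to the median of all genes). On that scale Grin1 and Grin2b stayed above 0 and Grin2c below 0 throughout, while Grin2a, Grin2d and Grin3a crossed 0 under at least 1 setting.

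Between genes, levels were compared as TPM, in which counts are divided by transcript length. TPM are shares of a library: between the genotypes, log2(TPM + 1) put the median of all tested genes 0.55 higher in Fmr1-KO, so they serve here for the order within a library. Grin1 led with a mean of 716 TPM in Fmr1-KO and 480 TPM in WT. It stood above Grin2b in 8 of 8 libraries of each genotype, with a median ratio of 3.47 in Fmr1-KO and 3.79 in WT. Grin2b and Grin2a were close, at 202 and 190 TPM in Fmr1-KO and 131 and 134 TPM in WT. Grin2b exceeded Grin2a in 7 of 8 Fmr1-KO libraries and in 3 of 8 WT libraries, so that these neighbours in the order did not separate beyond their spread. Grin2c followed with 17.3 TPM in Fmr1-KO and 16.1 TPM in WT, below Grin2a in every library. Grin2d at 6.91 TPM in Fmr1-KO and 6.86 TPM in WT, and Grin3a at 4.22 TPM in Fmr1-KO and 3.79 TPM in WT, came last, with Grin2d above Grin3a in 7 of 8 Fmr1-KO and 6 of 8 WT libraries. Of the summed TPM of the 6 genes, Grin1 held 63.3% ± 3.88 in Fmr1-KO and 61.8% ± 4.79 in WT (SD, n = 8 each).

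The balance of GluN2A to GluN2B messages is the ratio most often followed in this receptor family, because it changes with development and with experience. In estimated counts, Grin2a over Grin2b was lowest at 0.536 in Fmr1-KO, with a median of 0.583 and a highest value of 0.616. The WT libraries ran from 0.561 through a median of 0.729 to 0.886. The Fmr1-KO libraries were thus tightly grouped and all 8 lay below the WT median, while 3 WT libraries, replicates 2, 4 and 5, fell among them. These count ratios are not ratios of molecules, since the main Grin2b message, of 24060 bases, is longer than that of Grin2a, of 14634 bases. The mean ratio was 0.580 ± 0.0265 in Fmr1-KO and 0.704 ± 0.109 in WT (SD, n = 8 each). The difference in mean log2 ratio was −0.26, a fold of 0.832, with p = 0.00917 in a two-sided exact permutation test and 0.0550 after Benjamini-Hochberg adjustment over the 6 ratios examined. The ratio therefore did not pass the threshold after adjustment. It did when WT replicate 2, 4 or 5 was left out (log2 differences of −0.29, −0.30 and −0.31). These are the WT libraries with the lowest ratios, so leaving one out had to widen the difference, and the passes add no support.

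The ratio moved with the letter of the animal label and with the unit. Among animals of letter B, it was 0.570 ± 0.0337 in Fmr1-KO and 0.779 ± 0.0746 in WT (SD, n = 4 each), and all 4 WT libraries exceeded all Fmr1-KO libraries. The log2 difference was −0.45, with an exact permutation p of 0.0286, the smallest that 4 against 4 can give. Among animals of letter D, the ratio was 0.590 ± 0.0161 in Fmr1-KO and 0.628 ± 0.0837 in WT (SD, n = 4 each), a log2 difference of −0.08 (exact permutation p = 0.543). The difference between the letters was not tested. The split by letter was not among the planned tests, and these p-values are not adjusted over the ratios. WT replicates 3 and 6, the libraries with the lowest totals, are both among the 4 WT animals of letter B. Without WT replicates 3 and 6 the log2 difference was −0.20 (exact permutation p = 0.0217). As a ratio of TPM, Grin2a over Grin2b was 0.942 ± 0.0567 in Fmr1-KO and 1.09 ± 0.245 in WT (SD, n = 8 each), with a log2 difference of −0.17 and an exact permutation p of 0.194.

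**Figure D3:**
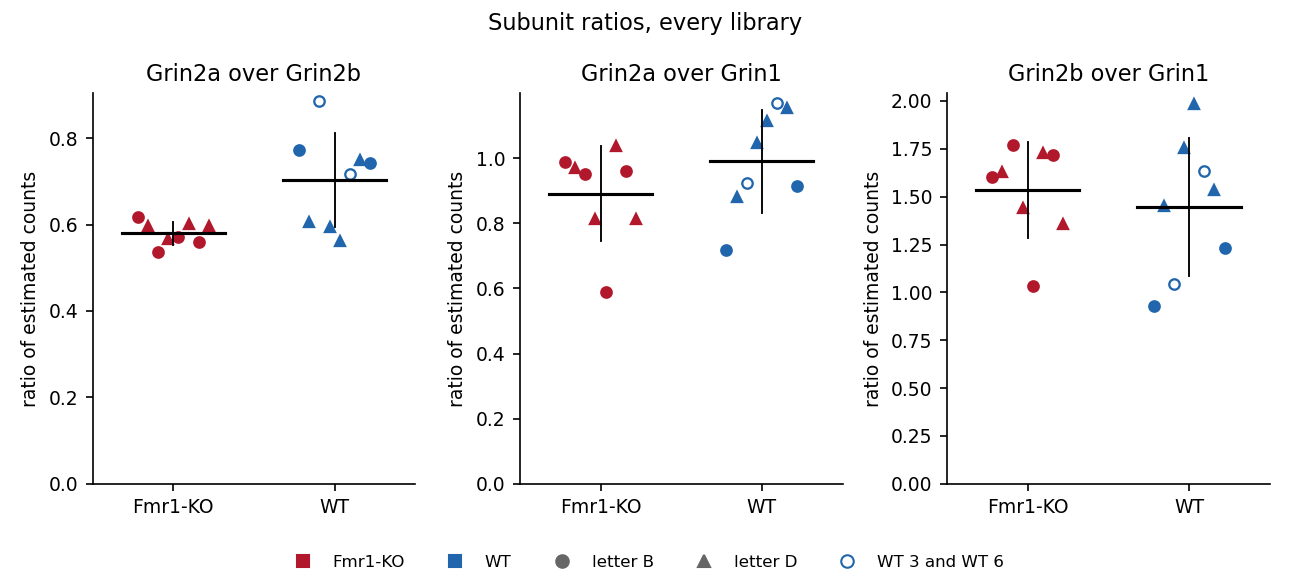
Ratios of estimated counts in every library, Fmr1-KO left and WT right, with mean and SD over 8 libraries and marker shape for the letter of the animal label. For Grin2a over Grin2b, the Fmr1-KO libraries lie between 0.536 and 0.616 while WT reaches 0.886, and the WT circles (letter B) lie above all Fmr1-KO points.

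Relative to Grin1, no other subunit passed the test. Grin2a over Grin1 in counts was 0.890 ± 0.146 in Fmr1-KO and 0.990 ± 0.157 in WT (SD, n = 8 each), a log2 difference of −0.16 (exact permutation p = 0.249, adjusted 0.359). Grin2b over Grin1 was 1.54 ± 0.249 in Fmr1-KO and 1.45 ± 0.359 in WT (SD, n = 8 each), a log2 difference of 0.11 (exact permutation p = 0.508). The minor subunits over Grin1 had log2 differences of −0.47 for Grin2c (exact permutation p = 0.0656, adjusted 0.197), −0.34 for Grin2d (exact permutation p = 0.299) and −0.63 for Grin3a (exact permutation p = 0.203). In all 3, WT replicate 3 held the highest ratio. It had the least Grin1 in CPM, while WT replicate 6 had the least in counts. In WT replicate 3, Grin2c over Grin1 was 0.0981, over the range of 0.0264 to 0.0466 of the other WT libraries. Without WT replicates 3 and 6 these log2 differences were −0.29 for Grin2c, −0.25 for Grin2d and −0.12 for Grin3a.

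At the level of transcripts, each member other than Grin1 had most of its counts, summed over the 16 libraries, on a single message. Grin2b-001 took 98.8% of the gene's counts, Grin2d-001 96.6%, Grin2a-001 95.3%, Grin3a-002 82.0% and Grin2c-201 75.4%. For the low members the leading message was not the same in every library: Grin2c-001 exceeded Grin2c-201 in Fmr1-KO replicate 7, WT replicate 2 and WT replicate 6, and Grin3a-002 was assigned 0 counts in Fmr1-KO replicate 6. Of the 17 transcripts tested, 0 passed edgeR's adjusted threshold, where 0.00596% of 16772 transcripts did, and 1 had an unadjusted p under 0.05, against 3.91% of all transcripts. That one was Grin1-004, the message without N1 and with C1 and C2, which carried 43.8% of Grin1 counts. It averaged 710 ± 107 CPM in Fmr1-KO mice, against 592 ± 72.7 CPM in WT (SD, n = 8 each), a log2 fold change of 0.26 (SE 0.10, unadjusted p = 0.0185, adjusted p = 0.9999 in edgeR).

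Grin1-009, which lacks N1 and C1 and has C2, held 27.4% of the gene's counts, and Grin1-001, with neither N1 nor C1 and the C2′ tail, held 17.6%. Their log2 fold changes were 0.56 (SE 0.49) and 0.13 (SE 0.14), or 0.32 and 0.11 without WT replicates 3 and 6. Grin1-005, with C1 and C2′, held 6.35% and had −0.17 (SE 0.57), or −0.40 without them. Grin1-007, Grin1-008 and Grin1-010, which include N1, held 1.27%, 0.856% and 0.713%, and had SEs of 0.92, 0.98 and 1.22 around their log2 fold changes of 0.06, 0.07 and 1.30. Those became −0.31, −0.29 and 0.97 without these WT libraries. The noncoding Grin1-002, Grin1-003 and Grin1-012 had 0.907% or less of the counts each and log2 fold changes of −0.14, 0.03 and 0.26. The division of reads between these overlapping messages is a model estimate: in WT replicate 3, Grin1-009 was assigned 0 reads to the nearest count, while it was among the main messages elsewhere.

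The remaining tested messages varied in the same way. Grin2a-003, a retained-intron message, averaged 55.1 ± 15.9 CPM in Fmr1-KO mice, against 45.5 ± 15.9 CPM in WT (SD, n = 8 each), a log2 fold change of 0.26 (SE 0.24). Grin2c-001 had −1.20 (SE 0.98) and Grin2c-201 0.17 (SE 0.42), opposite signs within 1 gene, or −0.78 and 0.09 without WT replicates 3 and 6. Grin2a-001 had 0.12 (SE 0.14), Grin2b-001 0.35 (SE 0.19), Grin2d-001 −0.10 (SE 0.30) and Grin3a-002 −0.39 (SE 0.60). The protein-coding share of Grin1 counts was 98.3% ± 0.680 in Fmr1-KO and 97.9% ± 0.991 in WT (SD, n = 8 each; exact permutation p = 0.325). For Grin2a it was 96.2% ± 0.731 in Fmr1-KO and 96.5% ± 0.730 in WT (SD, n = 8 each; exact permutation p = 0.347). For Grin2b it was 100% in every library but WT replicate 5.

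Summed over transcripts, the cassettes describe which GluN1 forms the CA1 messages encode; they were looked at after the transcript values had been seen. N1 was rare, with 2.91% ± 1.18 of protein-coding Grin1 counts in Fmr1-KO and 2.49% ± 2.35 in WT (SD, n = 8 each; exact permutation p = 0.664). WT replicates 3 and 6 had no N1 counts, and without them the difference turned to −0.41 points. C1 was present in about as many messages as lacked it, at 51.5% ± 6.33 in Fmr1-KO and 55.8% ± 8.51 in WT (SD, n = 8 each; exact permutation p = 0.291), a difference of −4.26 points, or −1.63 points without WT replicates 3 and 6. The C2 tail was the main one. Its share was lowest at 70.5% in Fmr1-KO, with a median of 76.2% and a highest value of 81.4%, against 69.0%, 73.2% and 77.7% in WT. The means were 76.5% ± 4.09 in Fmr1-KO and 72.6% ± 2.92 in WT (SD, n = 8 each), a difference of 3.85 percentage points. Its exact permutation p was 0.0441, or 0.132 after adjustment over the 3 cassettes, so the difference did not pass. Without WT replicates 3 and 6 the exact permutation p was 0.108. Leaving out Fmr1-KO replicate 7 alone gave a difference of 4.70 points, which passed after adjustment. That library had the lowest share of its group, so its removal had to widen the difference.

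**Figure D4:**
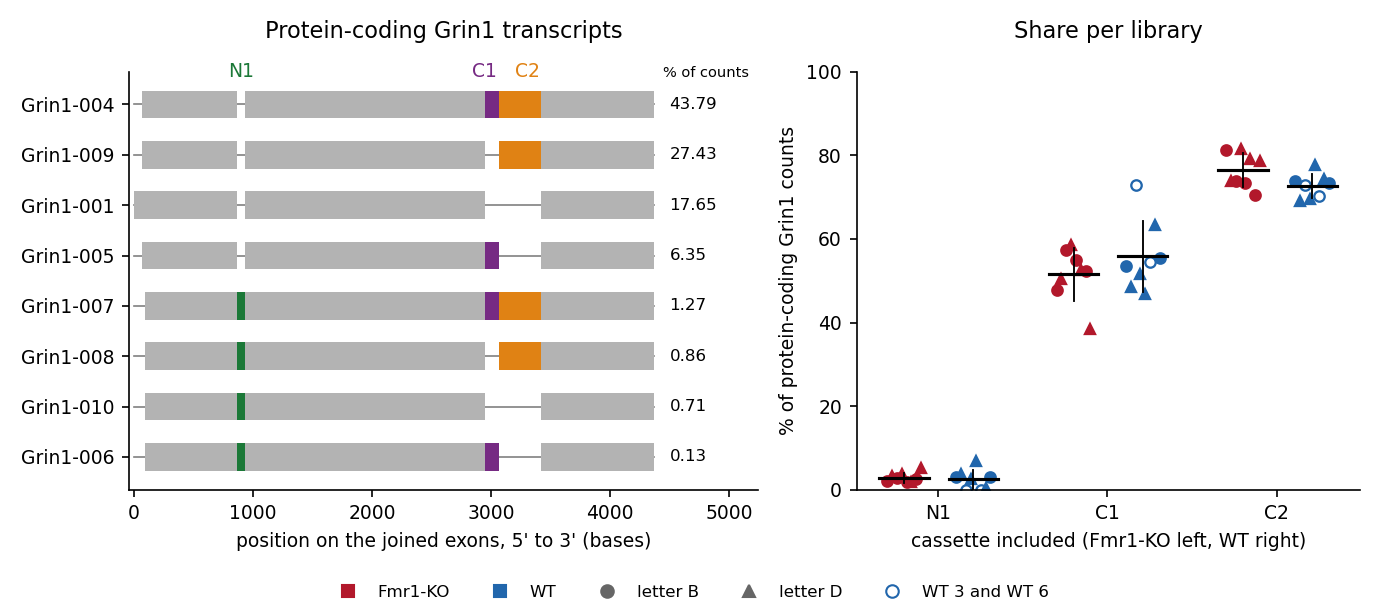
Left, the 8 protein-coding Grin1 transcripts on their joined exons in bases, with N1 (green), C1 (purple) and the bases specific to the C2 acceptor (orange) to scale and each transcript's percentage of all Grin1 counts. Right, the percentage of protein-coding Grin1 counts with each cassette in every library (Fmr1-KO left, WT right; mean and SD over 8 libraries), low for N1, near the middle for C1 and above 69.0% for C2.

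Sequence shared with other genes was limited for most members, which bears on how reads could be assigned. No 31-base word of Grin2d or Grin3a occurred in another quantified gene outside the receptor family. The share of such words was 0.262% for Grin2a, 0.998% for Grin2b and 1.26% for Grin2c. For Grin1 it was 10.7%, nearly all with Grin1os, an antisense gene that overlaps 1307 of its exonic bases. Grin1os was assigned 14.2 to 141 counts per library, 2.49% of the Grin1 total. Strand use is not given in the sources used here, so reads of Grin1 and Grin1os from these bases cannot be told apart. Between members, at most 6 words of a gene were shared. An antisense gene that is not among the quantified genes overlaps 643 exonic bases of Grin2d. Its part in the Grin2d counts was not tested.

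Levels of the minor subunits were set beside markers of the cells known to express them. Grin2c levels varied across libraries with the summed level of 12 astrocyte markers, all detected, which ran from 1119 to 1442 CPM in Fmr1-KO and from 1172 to 3332 CPM in WT. Pearson's r was 0.764 (permutation p = 0.00021, adjusted over 3 relations 0.00063) and Spearman's rho 0.782 (permutation p = 0.00066) over 16 libraries. Leaving out the 2 libraries farthest from the median, WT replicate 3 and Fmr1-KO replicate 6, r was 0.666 (permutation p = 0.0100). Within the genotypes r was 0.651 in Fmr1-KO (n = 8, permutation p = 0.0686) and 0.841 in WT (n = 8, permutation p = 0.00455). The astrocyte markers themselves had log2 fold changes below 0 in 11 of 12 cases, with a median log2 fold change of −0.29, or −0.08 without WT replicates 3 and 6, and their part in the Grin2c values between genotypes was not tested.

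Grin2d and Grin3a were set beside 12 interneuron markers, all detected, whose sum ran from 448 to 841 CPM in Fmr1-KO and from 615 to 863 CPM in WT. For Grin2d, r was 0.411 (permutation p = 0.113) and rho 0.565 (permutation p = 0.0256, adjusted 0.0384). Without the 2 libraries farthest from the median, r was 0.318 (permutation p = 0.267) and rho 0.490 (permutation p = 0.0775), so that neither passed. With WT replicates 3 and 6 left out, r was 0.53 (permutation p = 0.0499, adjusted 0.0748) and rho 0.517 (permutation p = 0.0609). Within the genotypes r was 0.720 in Fmr1-KO (n = 8, permutation p = 0.0389) and 0.423 in WT (n = 8, permutation p = 0.306), while rho was 0.762 in Fmr1-KO (n = 8, permutation p = 0.0369, adjusted 0.0555) and 0.738 in WT (n = 8, permutation p = 0.0453, adjusted 0.0679). For Grin3a, r was −0.109 (permutation p = 0.688) and rho −0.194 (permutation p = 0.471). Leaving out its 2 farthest libraries gave r = −0.165. The interneuron markers themselves had log2 fold changes below 0 in 9 of 12 cases, with a median of −0.23, or −0.07 without WT replicates 3 and 6. Their part in the Grin2d and Grin3a values between genotypes was not tested.

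**Figure D5:**
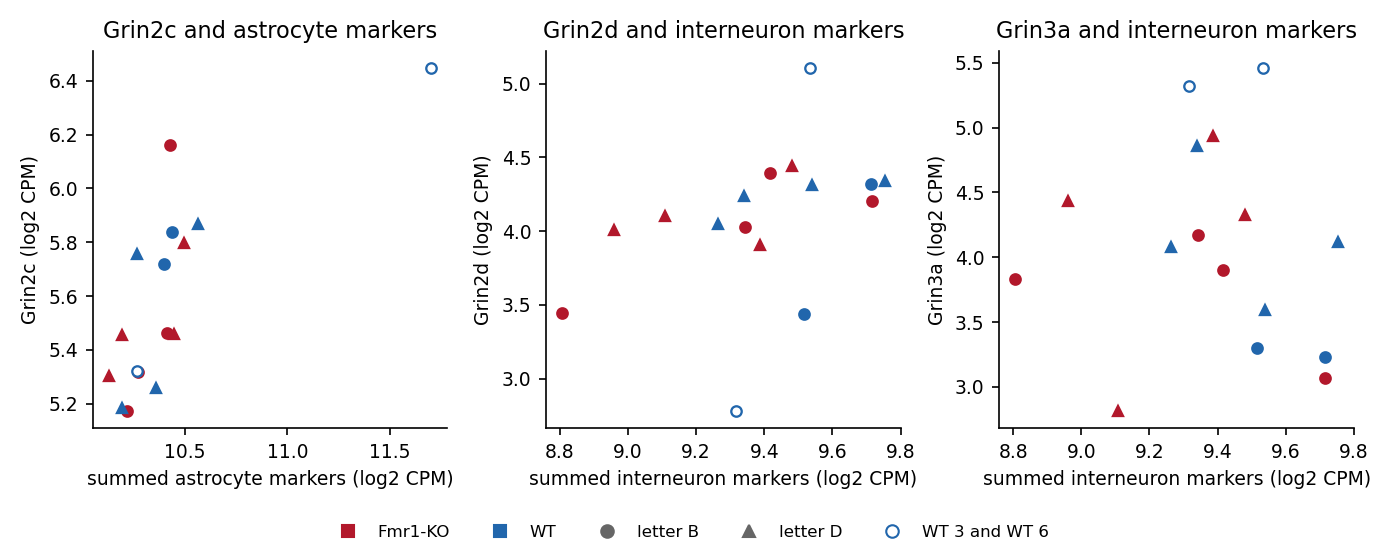
Level of Grin2c against summed astrocyte markers, and of Grin2d and Grin3a against summed interneuron markers, both as log2 CPM, 1 point per library (red Fmr1-KO, blue WT, open circles WT replicates 3 and 6). Grin2c increases with the astrocyte sum (r = 0.764), with WT replicate 3 at the upper right, while Grin3a shows no such order (r = −0.109).

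Among themselves, Grin2a and Grin2b were the pair that varied most alike over the 16 libraries, with a Spearman correlation of 0.894, or 0.873 over the 14 libraries without WT replicates 3 and 6. Grin1 followed Grin2b at 0.735 and Grin2a at 0.565. Correlations of Grin1, Grin2a and Grin2b with Grin2c lay between −0.394 and −0.285. All of these are descriptions, since the points share library depth and composition.

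The genes whose levels varied most like each member, among 7168 candidates, were sought in the same 16 libraries by Spearman correlation. For Grin1 they were Ncdn (0.924), which encodes the neuronal protein neurochondrin, the calcium-activated tyrosine kinase gene Ptk2b (0.921) and the neuronal splicing factor gene Rbfox1 (0.912). For Grin2b they were Abi2 (0.965), an actin regulator of the WAVE complex, Ppp1r9a (0.959), which encodes the actin-binding neurabin, and the microtubule protein gene Map1b (0.956). Map1b also stood near Grin2a (0.947), with the potassium channel gene Kcnq3 (0.947) and the ephrin receptor gene Epha6 (0.944). For Grin2c the highest was Epas1 (0.897), which encodes a hypoxia-inducible transcription factor, followed by Slc35f6 (0.838) and Zfp592 (0.768). Grin2d was closest to the kinase gene Mark1 (0.829), the phosphatase gene Ptpra (0.797) and Csdc2 (0.794). Grin3a was closest to Zcchc14 (0.876), the histone demethylase gene Kdm3b (0.859) and Fbxl18 (0.844).

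The proteins that anchor, modify and feed the receptor were examined as a list of 56 symbols, of which 52 were tested. In edgeR, 0 of 52 passed the adjusted threshold, beside the 0.0174% of all genes. The partners were split, with 27 above and 25 below a log2 fold change of 0 and a median of 0.01, beside −0.01 over all genes. At an unadjusted p under 0.05 there were 8 of 52, against 7.89% of all genes. Kinases and phosphatases had 14 of 17 members above 0 and a median of 0.09, membrane scaffolds 5 of 10 and −0.03, and genes of co-agonist and glutamate handling 1 of 7 and −0.12, or −0.02 without WT replicates 3 and 6. Calmodulin and downstream signalling had 3 of 9 and −0.03, and trafficking and surface partners 3 of 8 and −0.07, where 48.1% of all genes were above 0. With WT replicates 3 and 6 left out, the median of the scaffolds was 0.03 and that of the kinases and phosphatases 0.09. The only remaining gene tested, Grina, had 0.12.

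Of those 8 genes, 5 had higher means in Fmr1-KO. Camk2b, the beta subunit of the CaMKII kinase that GluN2B docks, averaged 2476 ± 131 CPM in Fmr1-KO mice, against 2201 ± 153 CPM in WT (SD, n = 8 each), a log2 fold change of 0.17. Kalrn, which encodes a protein of dendritic spines, averaged 1438 ± 132 CPM in Fmr1-KO mice, against 1246 ± 140 CPM in WT (SD, n = 8 each), a log2 fold change of 0.21. The calcineurin genes Ppp3r1 and Ppp3ca, whose phosphatase acts in long-term depression, had log2 fold changes of 0.18 and 0.15, with means of 1839 and 3848 CPM in Fmr1-KO mice, against 1625 and 3464 CPM in WT. Ptk2b, whose kinase signals to the receptor through Src, had 0.16, with 1734 ± 81.1 CPM in Fmr1-KO mice, against 1554 ± 135 CPM in WT (SD, n = 8 each). Their adjusted p-values in edgeR lay between 0.590 and 0.628.

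The other 3 had lower means in Fmr1-KO. Slc6a9, the glycine transporter GlyT1 that limits the co-agonist at the receptor, averaged 14.9 ± 4.96 CPM in Fmr1-KO mice, against 28.8 ± 18.5 CPM in WT (SD, n = 8 each). Its log2 fold change was −0.81 (SE 0.30, adjusted p = 0.581 in edgeR), or −0.51 without WT replicates 3 and 6 and −0.33 with counts scaled from TPM by length. Dlg1, the scaffold SAP97, averaged 33.2 ± 4.20 CPM in Fmr1-KO mice, against 41.5 ± 6.44 CPM in WT (SD, n = 8 each), a log2 fold change of −0.33 (adjusted p = 0.617 in edgeR) with all 8 Fmr1-KO libraries at or below the WT median. With counts scaled from TPM by length it was −0.93, and on log2(TPM + 1), relative to the median of all genes, −0.68. Neto1, an auxiliary protein of kainate and NMDA receptors, averaged 16.2 ± 5.68 CPM in Fmr1-KO mice, against 23.5 ± 6.55 CPM in WT (SD, n = 8 each), a log2 fold change of −0.51 (adjusted p = 0.628 in edgeR).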

How the data were processed

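RNA of the CA1 subfield was sequenced in 16 libraries, and the libraries are read as separate animals from their labels. No label states separate litters or extractions, so p-values measure the spread between these samples. Several libraries share an animal number with another of their genotype, and the main tests treat them as independent. With the number as a random effect in limma-voom, the correlation within a number was −0.0122 and 0 members passed the adjusted threshold. Per the submitters' processing notes, FastQC, cutadapt, kallisto and DESeq2 were used; no version, index or build is given in the sources used here. The deposited estimated counts are reads divided between transcripts by a model, and the deposited TPM are shares of a library corrected for effective length. Estimated counts were summed per symbol and rounded. Genes and transcripts were tested with edgeR 4.0.16 (quasi-likelihood, TMM, filterByExpr with a minimum count of 10, Benjamini-Hochberg, threshold 0.05) in R 4.3.3, with limma 3.58.1 and DESeq2 1.42.0 as alternatives. Intervals are the estimate ± 1.96 SE. For ratios and shares, two-sided exact permutation tests ran over 12870 assignments, and correlations used 100000 permutations, in SciPy 1.17.1. Ratios of Grin2c, Grin2d and Grin3a had 0.5 counts added. The tests were checked on simulated counts. Members, partner lists, marker lists and the exclusion of WT replicates 3 and 6 were chosen with earlier results of these data known. Genes named are the 6 members, their tested transcripts, Fmr1, the 8 partners with the smallest p, and for each member the 3 genes with the highest Spearman correlation among those with at least 20 CPM. Grin1os, Grin3b and Grina were named outside this rule, after their values were seen. Depth is the total estimated count per library.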

Additional observations from a re-analysis of the deposited data

Results flagged for a closer look

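Among 36 groups of 8 libraries examined for a library far from its group, 4 values, from WT replicates 3 and 5, stood out by Dixon's criterion for 8 samples; chance flags about 1 in 20 groups. WT replicate 3 had 86.45 CPM of Grin2c, against 35.5 to 57.6 CPM in the other WT libraries. The same library had a Grin2c over Grin1 ratio of 0.09806 and a Grin2d over Grin1 ratio of 0.03855, against at most 0.0466 and 0.0159 in the other WT libraries. Its summed astrocyte markers, 3332 CPM, were the highest of all libraries, and its Grin1 level of 887 CPM was the lowest. WT replicate 5 had a protein-coding share of Grin2b of 99.99%, where the other 7 WT libraries were at 100%. Beside 7 equal values any departure, however small, meets the criterion.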

How the results depend on the processing

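No member and no partner passed the threshold under any of 31 alternatives of the gene fit. The number of genes past it was 2 in the reported fit, 6 in DESeq2 with or without WT replicates 3 and 6, 5 with no filter, 7 in limma-voom with quality weights, 1 with length-scaled TPM counts, and 0 with log2(TPM + 1), log2(TPM + 0.1) or letter B animals alone. In these fits without any call the numbers at an unadjusted p under 0.05 were 902, 736 and 880. For transcripts it was 1 in the reported fit and 12 in DESeq2. Signs turned for Grin2a with letter D animals alone (−0.045), for Grin2d without WT replicate 3 (0.013, lowest −0.24 when 1 library was left out), and for Grin3a in limma-voom with quality weights (0.038), without WT replicates 3 and 6 in edgeR and in DESeq2 (both 0.10) and with letter D alone (0.070). Without WT replicates 3 and 6, Grin1-007 (−0.31), Grin1-008 (−0.29), Grin1-003 (−0.23) and the N1 share (−0.41 points) turned too, and with letter D alone Grin2b over Grin1 did (−0.12); the causes were not tested. Grin2a over Grin2b lay between −0.31 and −0.22 when 1 library was left out. It passed after adjustment without WT replicate 2 (−0.29), 4 (−0.30) or 5 (−0.31), the WT libraries with the lowest ratios, whose removal had to widen the difference. Log2(TPM + 1) and log2(TPM + 0.1) moved the median of all genes by 0.55 and 0.62, and the members' fold changes were read relative to it. The limma p-values of those fits were not centred, so they do not test members relative to that median. At an unadjusted p under 0.05 in them, 889 of 902 and 728 of 736 genes were higher in Fmr1-KO. No paired analysis was possible because the genotypes share no animal number. Depth limits Grin2d and Grin3a most: WT replicate 6 held 2 counts of Grin2d, and intervals cover these samples only.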
